A study of Mus musculus with 2 samples.

Results

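The genes described are 6 lymphocyte niche cytokines and receptors, Il7, Il7r, Il15, Il15ra, Tnfsf13b and Flt3l. They were taken by symbol from the gene tables of both matrices, and all 6 were found among 32286 features. The series holds 2 single-cell RNA libraries of bright tdTomato-positive cells sorted from the endosteal niche of mouse femur and tibia. All mice were male Adipoq-CreERT2;Ai9 animals, in which tamoxifen starts a permanent tdTomato label in cells that use the Adipoq promoter. Tamoxifen was given by oral gavage at 8 weeks of age for 3 days, and cells were harvested 24 h later for the pulse library and 4 weeks later for the chase library. The series used 4 mice, how many went into each library is not given in the labels, and the sorted gate held 0.01% of all cells for the pulse and 0.29% for the chase. There was 1 library per group, so no difference between the libraries was tested and harvest time cannot be told apart from library.

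IL-7 is the marrow cytokine on which developing B cells and many T cells depend, and Il7r encodes the receptor chain that binds it. IL-15, presented on the Il15ra chain of a neighbouring cell, sustains NK cells and memory T cells through the shared Il2rb and Il2rg chains. Tnfsf13b encodes BAFF, the survival factor of mature B cells, and Flt3l encodes the ligand of the Flt3 receptor of early lymphoid progenitors and dendritic cells. CAR cells (CXCL12-abundant reticular cells) are the marrow stromal cells best known as a source of niche cytokines. They are often split into an adipogenic and an osteogenic subtype.

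In the mm10 build with GENCODE vM21, all 6 are protein-coding genes. Il7 lies at chr3:7569994-7613760 and Il7r at chr15:9505788-9530176, both on the minus strand. Il15 lies at chr8:82331632-82403222 on the minus strand and Il15ra at chr2:11705290-11734317 on the plus strand. Tnfsf13b lies at chr8:10006467-10039072 on the plus strand and Flt3l at chr7:45129788-45136432 on the minus strand. The RefSeq promoter table of GRCm38.p6 gives windows from 250 bases before to 50 bases after a transcript start, and 6 windows matched 4 of the 6 genes. These windows were searched on both strands for the core of the interferon-stimulated response element (GAAA, any 2 bases, GAAA), which occurs in 3.44% of all 32851 windows, for TTCNNNGAA, the gamma-activated site bound by STAT factors (8.30%), and for CCCNNGGG, a core bound by EBF factors (13.7%). Tnfsf13b and Flt3l each held the interferon core within 16 bases of a start, and they are shown because both ligands were higher in chase CAR-like cells. Il7r held the gamma-activated site 142 bases before the RefSeq start of its window and is shown as the receptor with the most UMIs. The Il7r and Tnfsf13b stretches lie inside the GENCODE spans of the genes, because the RefSeq starts of those windows lie downstream of the outermost GENCODE starts. The Il15ra windows held none of the 3 motifs. The stretches are printed 5′ to 3′ on the strand of the gene, with the motif in capitals (for Flt3l, the reverse complement of the core), and a match describes letters only.
Tnfsf13b, chr8:10006607-10006636: tacaaaaactGAAAGTGAAAtgcggaaggc
Flt3l, chr7:45136423-45136452: caaagcttccTTTCACTTTCggtctttggc
Il7r, chr15:9529999-9530028: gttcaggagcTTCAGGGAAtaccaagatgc

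After filtering, 9212 pulse and 8335 chase cells were kept, with medians of 7772.5 and 7489 UMIs (unique molecular identifiers, counted RNA molecules) per cell, and 52 barcodes occurred in both libraries. Cells were given 1 of 8 main classes when they held enough markers of that class and of no other main class. Rarer classes were given in the same way, only among cells that passed no main gate. B-like cells that also passed the plasma cell gate were left out of both classes. Each class name stands for such a gate. CAR-like cells numbered 4069 in the pulse and 3895 in the chase library, of which 3374 and 3436 were adipogenic and 695 and 459 osteogenic by the larger share of subtype markers. The other gates held 390 and 282 osteoblast-like, 340 and 290 endothelial-like, 490 and 136 B-like, 445 and 313 T-like, 423 and 296 neutrophil-like and 1349 and 1512 monocyte- or macrophage-like cells. Blood cells were therefore present although the sort was for tdTomato. NK-like cells were too few for a class (14 and 9). Levels are counts-per-million values (CPM) of the UMIs of the class with exact 95% Poisson intervals, and a ratio carries an exact interval conditional on its UMIs. All intervals cover counting error only, since cells of 1 library are not replicates. Orders of levels refer to classes with at least 50 cells in each library. A level within a class cannot be compared between genes here, because the 3′ counts are not scaled for how well each transcript is captured.

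Il7 was a CAR-like transcript in both libraries and was lower in the chase. CAR-like cells held 5893 Il7 UMIs in the pulse, 163 CPM (159 to 168), and 2691 in the chase, 94.1 CPM (90.6 to 97.7). The intervals do not overlap, and the chase-to-pulse ratio was 0.576 (0.550 to 0.603). CAR-like cells gave 89.0% of the 6622 Il7 UMIs of all kept pulse cells and 90.3% of the 2980 of the chase. Osteoblast-like cells, the mature bone-forming cells, held 6 Il7 UMIs in each library, 0.715 and 1.08 CPM, which is 229-fold (105 to 623) and 86.8-fold (39.8 to 237) below CAR-like cells. In endothelial-like cells Il7 was at 4.43 and 1.33 CPM, from 12 and 3 UMIs. NK-like cells held no Il7 UMI, and B-like and T-like cells held 2 at most in each library.

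The low Il7 values outside CAR-like cells were set beside the CAR marker list in the same cells, since free RNA from broken cells enters every droplet. In endothelial-like cells Il7 stood at 2.71% and 1.41% of its CAR-like level, while the 8 CAR markers summed to 5.99% and 4.00% of theirs. Neutrophil-like and monocyte- or macrophage-like cells also held relatively less Il7 (1.42% and 1.46%, 1.47% and 1.59%) than CAR markers (7.81% and 6.22%, 2.68% and 2.21%). Only in chase T-like cells (1.56% against 1.42%) and chase osteoblast-like cells (1.15% against 1.07%) was Il7 above the list among the 6 other classes compared, each from 6 UMIs or fewer. No Il7 transcription in those cells was read from these levels. How far a class makes any of the 8 CAR markers itself was not tested. An Il7 level below their sum therefore cannot tell free RNA from Il7 made by the class.

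Within CAR-like cells Il7 was higher in the adipogenic than in the osteogenic subtype. Adipogenic cells held 180 CPM (175 to 184) in the pulse and 99.0 (95.1 to 103) in the chase, and osteogenic cells 93.8 (86.7 to 101) and 64.9 (57.3 to 73.2). The osteogenic-to-adipogenic ratio was 0.523 (0.481 to 0.568) in the pulse and 0.656 (0.576 to 0.745) in the chase. Each subtype was also lower in the chase than in the pulse, at 0.551 (0.525 to 0.579) of the pulse level in adipogenic cells (where 5.98% of genes were at least 1.5-fold lower) and 0.692 (0.597 to 0.799) in osteogenic cells. The split is a range and not a boundary, since 634 pulse (15.6%) and 315 chase (8.09%) CAR-like cells had an osteogenic marker share between 0.4 and 0.6. When each cell was thinned to 2000 UMIs, 26.4% of pulse CAR-like cells (25.1 to 27.8) and 17.7% of chase cells (16.5 to 18.9) held an Il7 UMI, with 65 and 118 shallower cells left out. Without thinning the shares were 64.5% and 43.2%, and in thinned T-like cells, which should lack the transcript, 0.268% and 0.656%.

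**Figure D1:**
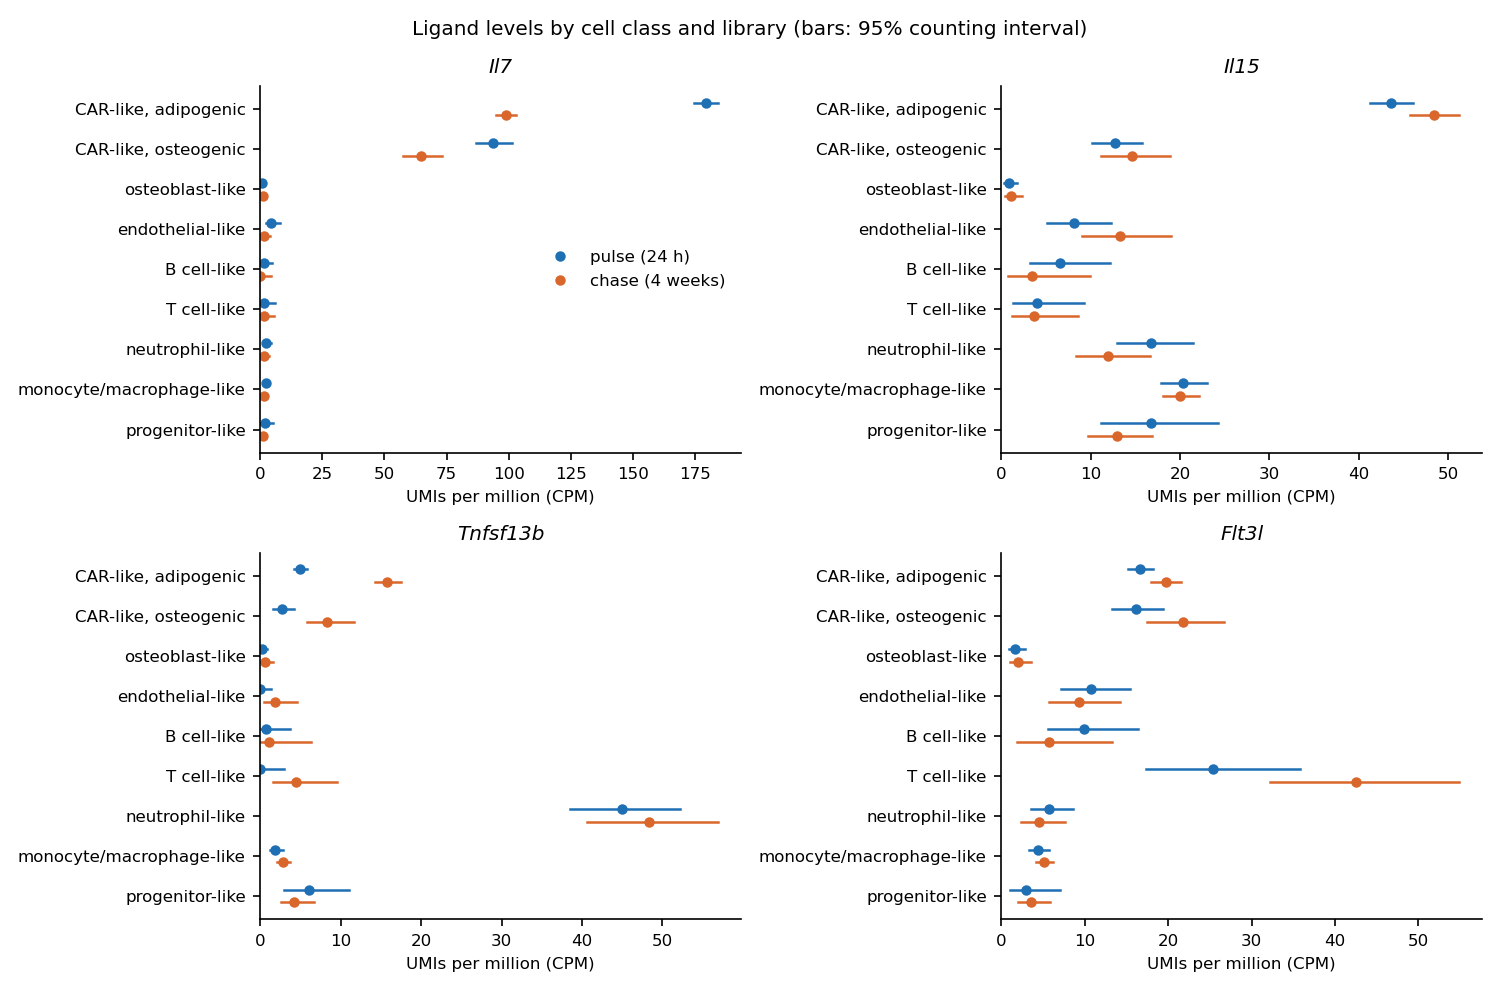
Levels of the 4 ligands in CPM of the class (x axis) for 9 marker-gated classes (y axis) in the pulse and chase libraries, with 1 point per library and bars for the exact 95% Poisson interval. Il7 is highest in the CAR-like subtypes (180 and 99.0 CPM in adipogenic cells), Tnfsf13b is highest in neutrophil-like cells (44.9 and 48.3 CPM) and Flt3l in T-like cells (25.4 and 42.5 CPM).

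An antisense gene, Gm16685, shares 105 exon bases with Il7, or 1.85% of the Il7 exons, and the labels and headers do not state whether the counting used strand. Gm16685 was higher in the chase, at 25.1 CPM (23.5 to 26.8) in pulse and 46.0 CPM (43.5 to 48.5) in chase CAR-like cells, while Il7 was lower there. Its part in the Il7 values was not tested.

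Across 7 bins of rising osteogenic marker share, Il7 was lower in the chase in all 7, and 6 of the 7 ratio intervals lay below 1. In the pulse the Il7 level went from 155 CPM (141 to 170) in the lowest bin to 190 CPM (181 to 199) in the bin from 0.2 to 0.3 and to 57.6 CPM in the highest. In the chase the bins ran from 93.7 CPM (82.7 to 106) through 113 CPM (95.7 to 132, share 0.4 to 0.5) to 47.0 CPM. The ratio of chase to pulse lay between 0.513 and 0.816, nearest to 1 in the most osteogenic bin. In the pulse Il7 was therefore not highest in the cells with the least osteogenic signal but further along the range, and in the chase the intervals of those bins overlap.

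**Figure D2:**
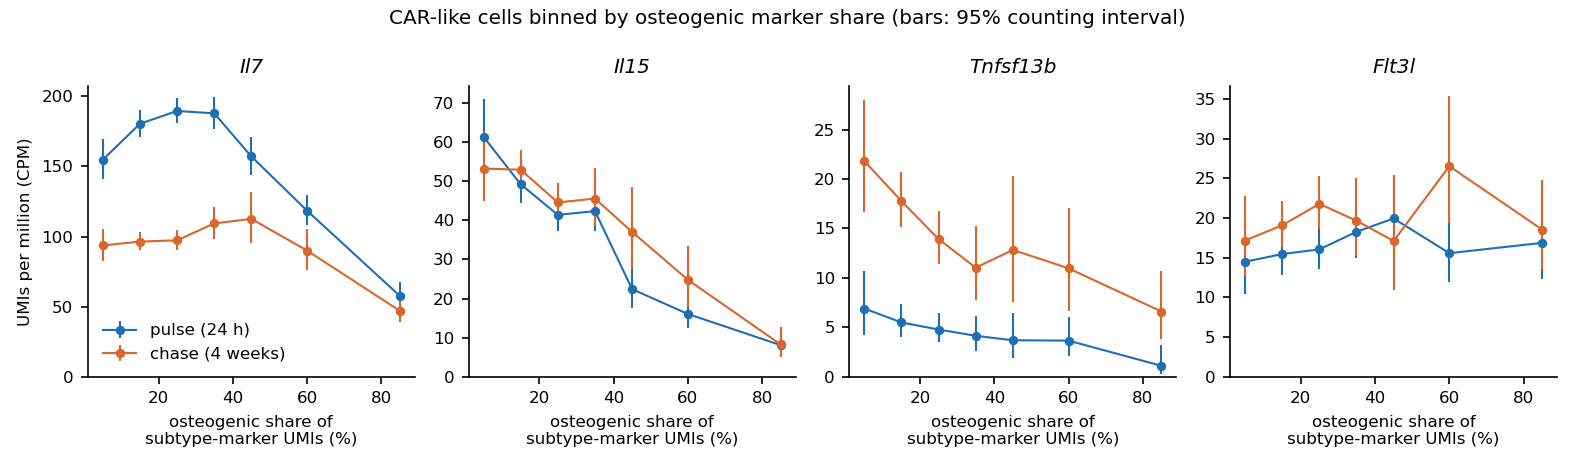
Levels of Il7, Il15, Tnfsf13b and Flt3l in CAR-like cells (y axis, CPM) in 7 bins of the osteogenic share of subtype-marker UMIs (x axis, percent, at the bin middle), pulse and chase, with exact 95% Poisson intervals as bars. The chase points lie below the pulse points for Il7 (47.0 to 113 against 57.6 to 190 CPM) and above them for Tnfsf13b in each bin, and Il15 is lowest at the osteogenic end in both libraries (8.07 and 8.24 CPM in the last bin).

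Il15 was highest in adipogenic CAR-like cells and differed little between libraries. CAR-like cells held 37.8 CPM (35.8 to 39.8) in the pulse and 43.6 CPM (41.2 to 46.1) in the chase, a ratio of 1.15 (1.07 to 1.25). Adipogenic cells held 43.6 and 48.4 CPM and osteogenic cells 12.7 and 14.6 CPM, so that the osteogenic level was 0.292 (0.232 to 0.363) and 0.302 (0.229 to 0.392) of the adipogenic level. That gap between subtypes was near equal in the 2 libraries. Along the osteogenic share, Il15 went from 61.4 to 8.07 CPM in the pulse and from 53.3 to 8.24 CPM in the chase.

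Monocyte- or macrophage-like cells came next for Il15, at 20.3 and 20.0 CPM, and CAR-like cells stood 1.86-fold (1.62 to 2.14) and 2.17-fold (1.94 to 2.45) above them. In the pulse neutrophil-like (16.8 CPM), progenitor-like, osteogenic CAR-like and endothelial-like cells followed with intervals that overlap their neighbours. In the chase the order was osteogenic CAR-like (14.6 CPM), endothelial-like, progenitor-like and neutrophil-like cells (12.0 CPM), with overlapping intervals. The monocyte- or macrophage-like level there was 1.37-fold (1.04 to 1.83) above the osteogenic CAR-like level. Endothelial-like cells held 8.12 and 13.3 CPM from only 22 and 30 UMIs, a ratio of 1.64 (0.915 to 2.98), where 4.46% of genes were at least 1.5-fold higher. Osteoblast-like cells held 0.834 and 1.08 CPM and erythroid-like cells 0, levels that cannot be separated at this depth. Of all Il15 UMIs, 67.9% in the pulse and 64.0% in the chase lay in CAR-like cells and 12.3% and 19.3% in monocyte- or macrophage-like cells. At 2000 UMIs per cell, 2.55% of pulse and 1.72% of chase CAR-like cells held both Il7 and Il15 UMIs, which is 1.21 and 1.18 times the product of the separate shares.

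Tnfsf13b was the ligand furthest apart between the libraries in CAR-like cells. It stood at 4.49 CPM (3.83 to 5.24, 162 UMIs) in the pulse and 14.7 CPM (13.3 to 16.2, 421 UMIs) in the chase, a ratio of 3.28 (2.73 to 3.95). The adipogenic (3.21, 2.65 to 3.92) and osteogenic subtypes (3.12, 1.71 to 5.87) had similar ratios, the second from 18 and 34 UMIs, beside 8.62% and 5.61% of genes at least 1.5-fold higher in those subtypes. All 7 bins of osteogenic share were higher in the chase, with ratios from 2.67 to 5.99 and every interval above 1. The thinned share of CAR-like cells with a Tnfsf13b UMI was 0.799% in the pulse and 3.52% in the chase.

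Neutrophil-like cells held the highest Tnfsf13b level in both libraries, 44.9 CPM (38.5 to 52.1) in the pulse and 48.3 CPM (40.6 to 56.9) in the chase. The ratio there was 1.07 (0.854 to 1.35), so no difference was detectable in that class at this depth. The neutrophil-like level was 10.0-fold (8.03 to 12.5) above CAR-like cells in the pulse and 3.28-fold (2.69 to 3.98) above them in the chase. With the larger CAR-like class, its part of all Tnfsf13b UMIs was 31.7% in the pulse and 54.8% in the chase, and that of neutrophil-like cells 34.1% and 18.4%. Neutrophil RNA also differed in CAR-like cells: all 8 neutrophil markers had UMIs there, summing to 1680 CPM in the pulse and 3669 CPM in the chase, or 0.411% and 0.949% of the neutrophil-like level. Tnfsf13b in CAR-like cells was 10.0% and 30.5% of its neutrophil-like level, and the part of neutrophil RNA in its values was not tested. Endothelial-like and T-like cells held 0 Tnfsf13b UMIs in the pulse and 4 and 6 in the chase, too few for a ratio.

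Flt3l was the only 1 of the 4 ligands with its highest level in lymphocytes. T-like cells held 25.4 CPM (17.4 to 35.8) in the pulse and 42.5 CPM (32.3 to 54.9) in the chase, from 32 and 58 UMIs. The ratio was 1.67 (1.07 to 2.66), with 11.3% of genes in that class at least 1.5-fold higher, and without mitochondrial and ribosomal protein genes in the totals it was 1.53 (0.975 to 2.43), an interval that includes 1. CAR-like cells held 16.5 CPM (15.2 to 17.9) and 20.0 CPM (18.4 to 21.7), a ratio of 1.21 (1.08 to 1.36), and gave 64.0% and 62.2% of all Flt3l UMIs. Unlike Il7 and Il15, Flt3l was near equal in the CAR-like subtypes, with osteogenic-to-adipogenic ratios of 0.971 (0.781 to 1.20) and 1.10 (0.869 to 1.38). Endothelial-like cells (10.7 and 9.32 CPM) and B-like cells (9.90 and 5.66 CPM) were lower, and osteoblast-like cells held 1.67 and 1.99 CPM. In the annotation 856 bases (22.1%) of the Flt3l exons are shared with another protein-coding gene on the same strand, Gm45713, which was not among the counted features.

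Because an interferon core stood at the starts of Tnfsf13b and Flt3l, CAR-like cells were also divided by the summed level of 14 interferon-induced genes, with the same limits in both libraries. That list stood at 871 CPM in the pulse and 1655 CPM in the chase, and the bin made from the upper 10% of all CAR-like cells held 3.66% of pulse and 16.6% of chase cells. Within the lower 50%, the middle and the upper 10% of interferon level, the chase-to-pulse ratio of Tnfsf13b was 2.88 (2.19 to 3.79), 3.14 (2.36 to 4.24) and 3.44 (1.60 to 8.78). The last ratio came from 7 pulse and 93 chase UMIs, and the part of interferon in the Tnfsf13b difference was not tested. For Il15 the 3 ratios were 1.09 (0.965 to 1.23), 1.14 (1.01 to 1.28) and 0.816 (0.630 to 1.07), so that the interval excluded 1 in the middle bin only. The Il7 ratios were 0.523, 0.567 and 0.764, all below 1, and the Flt3l ratios 1.28 (1.08 to 1.51), 1.17 (0.972 to 1.40) and 1.03 (0.642 to 1.73).

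Of the 6 genes, 5 had at least 50 UMIs over both libraries in CAR-like cells, the minimum for counting a fold. Il15ra and Tnfsf13b were at least 1.5-fold higher in the chase, against a background of 8.21% of 13162 genes. Il7 was at least 1.5-fold lower, against a background of 6.02%. The median log2 ratio of the 5 was 0.28, beside -0.02 over all genes. Between the CAR-like subtypes, Il7, Il15, Il15ra and Tnfsf13b were at least 1.5-fold lower in osteogenic cells in both libraries and only Flt3l of the 5 was not, where 7.43% of genes in the pulse and 11% in the chase were lower. The clusters that hold most CAR-like cells were not the same in the libraries: cluster 0 held 2469 pulse and 108 chase CAR-like cells, and clusters 1 and 2 held 113 and 63 pulse against 1507 and 1305 chase cells.

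**Figure D3:**
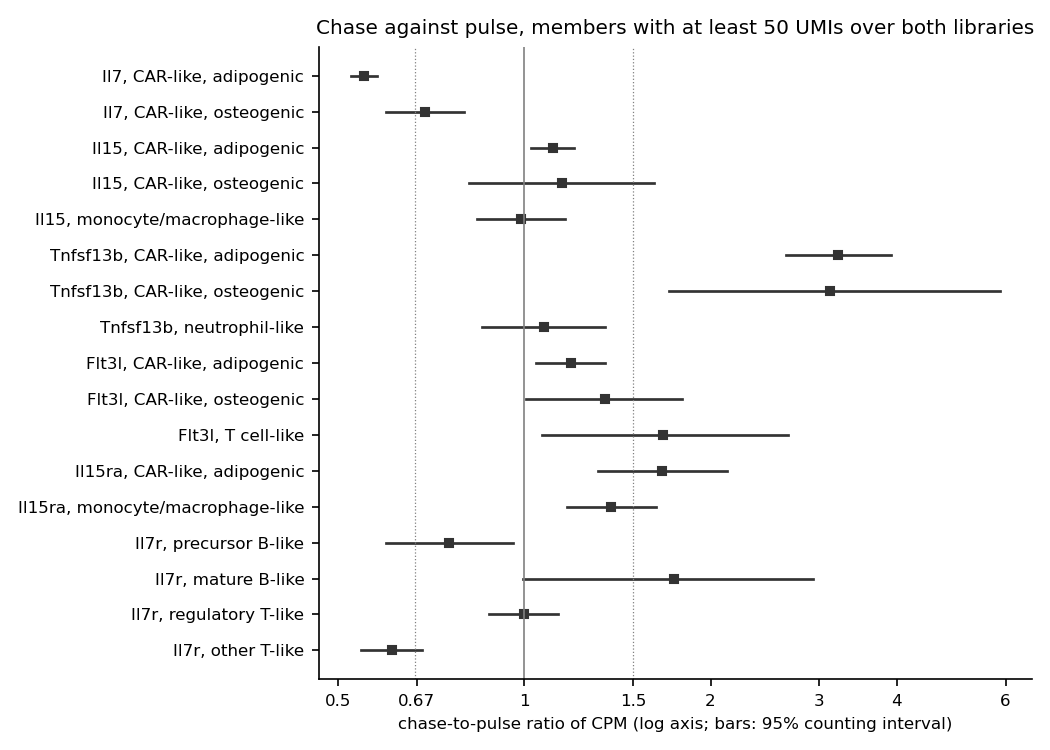
Chase-to-pulse ratios of CPM (x axis, log scale) for chosen pairs of member gene and class with at least 50 UMIs over both libraries (y axis), with exact 95% conditional intervals as bars, a solid line at 1 and dotted lines at 1.5-fold either way. Among the pairs not drawn are Tnfsf13b (1.56, 0.932 to 2.69) and Il7 (0.624, 0.358 to 1.09) in monocyte- or macrophage-like cells, with intervals that include 1. Tnfsf13b lies furthest to the right in adipogenic CAR-like cells (3.21), Il7 furthest to the left there (0.551), and Il15 in monocyte- or macrophage-like cells at 0.986.

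Il7r was a T-like transcript with a second site in B-lineage cells. T-like cells held 959 CPM (906 to 1015) in the pulse and 724 CPM (680 to 771) in the chase, from 1209 and 989 UMIs, a ratio of 0.755 (0.694 to 0.822). B-like cells held 141 CPM (123 to 161) and 260 CPM (228 to 296), a ratio of 1.84 (1.52 to 2.23), with 11.4% of 5698 genes at least 1.5-fold higher in that class. The T-like level was 6.79 times the B-like level in the pulse and 2.78 times in the chase, where 17.6% and 26.4% of genes were at least 1.5-fold higher in T-like cells. CAR-like cells held 0.693 and 0.839 CPM, which is 0.0723% and 0.116% of the T-like level, where the T cell markers stood at 0.0613% and 0.0668%. T-like cells gave 62.2% and 64.8% of all Il7r UMIs and B-like cells 11.0% and 15.1%.

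The T-like cells were divided by a regulatory gate of 2 of 5 markers, and 141 pulse and 108 chase cells held 1 marker and fell below it. Regulatory T-like cells, 186 in the pulse and 128 in the chase, held 874 CPM (797 to 956) and 872 CPM (796 to 954), a ratio of 0.998 (0.878 to 1.14). The other T-like cells, the 259 and 185 below the gate, held 1025 CPM (952 to 1102) and 625 CPM (572 to 682), a ratio of 0.610 (0.544 to 0.684), where 9.72% of 4114 genes were at least 1.5-fold lower. The order of the subsets was therefore opposite in the libraries: the regulatory level was 0.853 (0.758 to 0.958) of the other T-like level in the pulse and 1.40 times (1.23 to 1.58) in the chase. Thinned shares with an Il7r UMI were 68.2% and 69.4% of regulatory and 69.9% and 55.8% of other T-like cells. By these shares the subsets lay apart in the chase, while in the pulse they lay close together. Mitochondrial and ribosomal protein genes took 33.8% of T-like UMIs in the pulse and 27.3% in the chase. Without them in the totals the median log2 ratio of all genes in T-like cells moved from 0.01 to -0.13 and the Il7r ratios became 0.923 in regulatory and 0.549 in other T-like cells. Median depth was 2582 and 3753 UMIs per T-like cell, and most pulse cells lay in cluster 10 (427 against 112) and most chase cells in cluster 18 (199 against 17). The part of depth and cluster in the Il7r difference was not tested.

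Among the signalling partners of IL-7 and IL-15, Il2rb and Bcl2 stood apart between the libraries in opposite directions in other T-like cells. Of 19 partner genes, 11 had enough UMIs in other T-like cells, 2 of them at least 1.5-fold higher in the chase (background 14.8%) and 4 lower (background 9.72%), the first near its background. Il2rb, the chain that IL-15 and IL-2 share, was at 215 CPM in the pulse and 614 CPM in the chase, a ratio of 2.86 (2.38 to 3.45). Cish, a feedback inhibitor induced through STAT5, was at 26.7 and 114 CPM. Those lower were Stat5a (ratio 0.427), Stat5b (0.493), which encode the STAT5 factors themselves, Socs3 (0.591), another inhibitor of cytokine signalling, and Bcl2, a survival gene, at 440 and 235 CPM. In regulatory T-like cells 12 partners had enough UMIs, 2 of them lower and 1 higher, with a background of 7.25% lower and 8.87% higher among 3257 genes. Stat5a (0.511) and Bcl2 (0.565) were the lower ones and Cish (2.84) the higher, a count near its background. Il2rb stood at 297 and 434 CPM (1.46) in these cells, under the 1.5-fold limit.

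**Figure D4:**
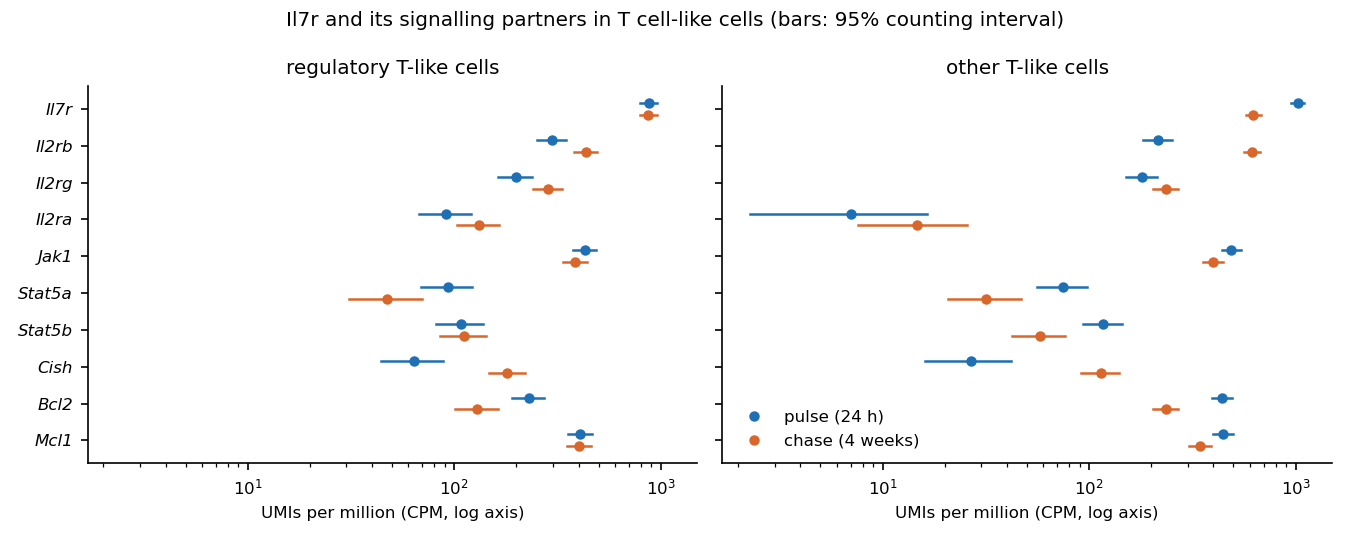
Levels of Il7r and 9 signalling partners (y axis) in CPM (x axis, log scale) in regulatory T-like cells (left) and other T-like cells (right), pulse and chase, with exact 95% Poisson intervals as bars. In other T-like cells the chase points are lower for Il7r (625 against 1025 CPM) and Bcl2 (235 against 440) and higher for Il2rb (614 against 215), and in regulatory T-like cells Il7r is level (872 against 874).

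In the B lineage the Il7r level depended on the stage. Precursor B-like cells held 397 CPM (329 to 474) in the pulse and 299 CPM (258 to 346) in the chase, a ratio of 0.755 (0.597 to 0.958), and mature B-like cells 53.2 and 92.7 CPM (61 and 20 UMIs), a ratio of 1.74 (0.996 to 2.93) with 6.66% of genes at least 1.5-fold higher. Precursor cells stood 7.45-fold (5.43 to 10.3) above mature cells in the pulse and 3.23-fold (2.03 to 5.41) in the chase, where 18.8% and 38.4% of genes were at least 1.5-fold higher. The B-like gate held 59 precursor and 409 mature cells in the pulse and 62 and 62 in the chase. So the higher level of the whole B-like class in the chase went with a larger share of precursors, whose own level was lower, and its part in the difference was not tested. Tnfrsf13c, the BAFF receptor of mature B cells, ran the other way, at 52.9 CPM in precursor and 306 CPM in mature pulse cells and at 32.4 and 260 CPM in the chase. Of the measured partners, 6 of 7 in the pulse and 5 of 5 in the chase were at least 1.5-fold lower in precursor than in mature cells, against 23.4% and 19.6% of genes. In the whole B-like class 6 of 10 measured partners were at least 1.5-fold lower in the chase (background 19.5%), Tnfrsf13c among them (0.359). In mature B-like cells alone 0 of 7 were (background 15.6%), which is near the share of all genes, and the measured partners were not the same. Tnfrsf13c stood there at a ratio of 0.848, Mcl1 at 0.744 and Crlf2 at 2.31, the 1 of 7 that was higher (background 6.66%). Mcl1 was also lower in precursor B-like cells (0.465).

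Rare lymphoid cells gave values on few UMIs. Type 2 innate lymphoid-like cells, 9 in each library, held 64 and 42 Il7r UMIs, 961 CPM (740 to 1228) and 1274 CPM (918 to 1722), a ratio of 1.33 (0.876 to 1.99). NK-like cells held 8 Il7r UMIs in the pulse and 0 in the chase, while their Il2rb, the receptor chain for IL-15, stood at 794 and 631 CPM from 71 and 38 UMIs. Dendritic-like cells held 15 Il7r UMIs in each library. Flt3, the receptor for the Flt3l product, stood at 285 and 217 CPM in those cells (36 and 42 UMIs in 16 and 22 cells) and at 0.444 and 0.385 CPM in CAR-like cells. Flt3 is itself a marker of the dendritic-like gate, so its high level there was partly fixed by the gate and is not a finding.

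**Figure D5:**
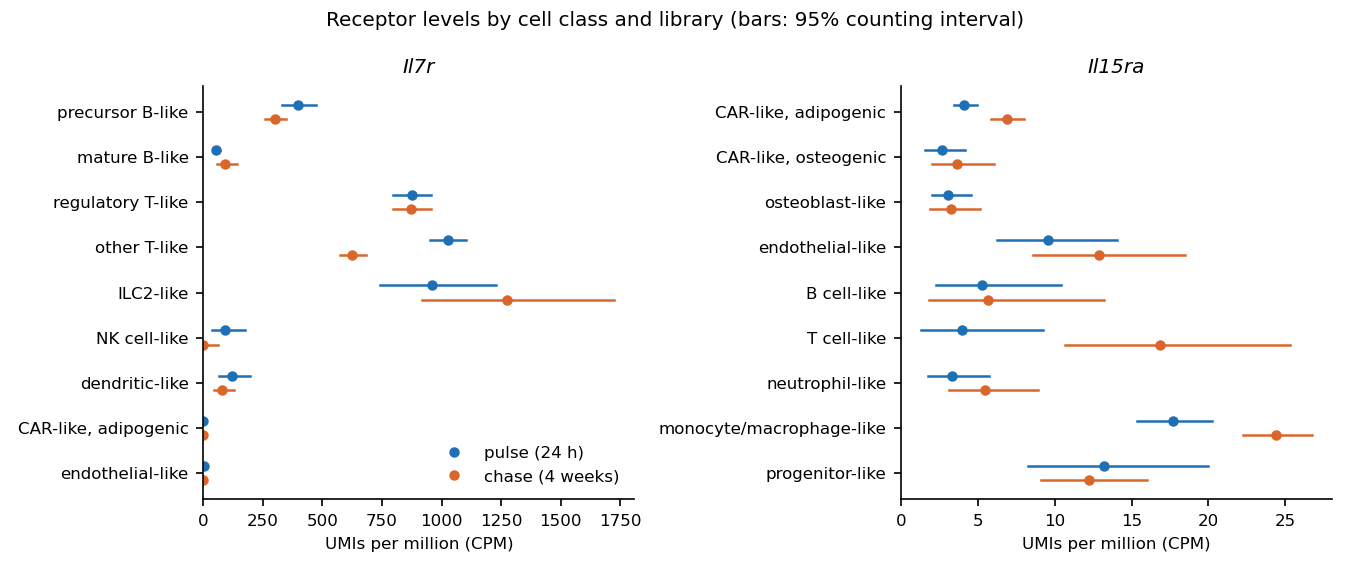
Levels of Il7r (left) and Il15ra (right) in CPM (x axis) by marker-gated class (y axis), pulse and chase, with exact 95% Poisson intervals as bars. Il7r is high in both T-like subsets (874 and 1025 CPM in the pulse) and innate lymphoid-like cells and lower in mature than in precursor B-like cells, and Il15ra stands at 24.4 CPM in chase monocyte- or macrophage-like cells, followed by T-like cells at 16.8 CPM.

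Il15ra, the chain that presents IL-15, stood first in monocyte- or macrophage-like cells, at 17.7 CPM (15.4 to 20.2) in the pulse and 24.4 CPM (22.2 to 26.8) in the chase, a ratio of 1.38 (1.17 to 1.63). CAR-like cells held 3.86 CPM (3.24 to 4.55) and 6.43 CPM (5.54 to 7.43), a ratio of 1.67 with a lower bound of 1.33. The monocyte- or macrophage-like level was 4.59-fold and 3.79-fold above CAR-like cells. Endothelial-like cells (9.59 and 12.9 CPM) and progenitor-like cells (13.2 and 12.2 CPM) lay between. T-like cells held 5 and 23 UMIs (3.97 and 16.8 CPM), under the minimum for a fold. The first place was not separated from the next class in either library, at 1.34 (0.863 to 2.18) times the progenitor-like level in the pulse and 1.45 (0.954 to 2.31) times the T-like level in the chase. By thinned shares 4.53% and 4.70% of monocyte- or macrophage-like cells and 0.674% and 1.35% of CAR-like cells had an Il15ra UMI. In the CAR-like subtypes, osteogenic cells had 0.644 (0.369 to 1.06) and 0.531 (0.291 to 0.901) of the adipogenic level, the first with an interval that includes 1.

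In CAR-like cells 14 of the 19 partners had at least 50 UMIs, 3 of them at least 1.5-fold higher and 1 lower in the chase (8.21% and 6.02% of all genes), with a median log2 ratio of 0.19 beside -0.02 over all genes. The 1 of 14 lower is near the share of all genes. Tslp, which encodes a cytokine that signals through Il7r paired with Crlf2, was at 7.77 and 12.7 CPM, a ratio of 1.63. Stat5a was at 26.3 and 45.8 CPM and the inhibitor Socs3 at 434 and 829 CPM. Cish was the gene that was lower, at 39.8 and 13.5 CPM, a ratio of 0.340, so the direction of Cish in CAR-like cells was opposite to that in T-like cells. Tnfsf13, which encodes APRIL, the close relative of BAFF, was near level (22.3 and 24.6 CPM). Crlf2 was at 50.1 and 55.5 CPM, while Il7r itself was near the free-RNA level in these cells.

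The genes whose class pattern was most like each member's were found by Pearson's r of log2(CPM + 1) over 24 sums (12 classes in 2 libraries) among 9480 genes. These sums share libraries and depth, so r is a description. For Il7 they were Thsd4 (0.958), Mro (0.957) and Fhl2 (0.957), and Thsd4 stood at 199 and 108 CPM in adipogenic and 107 and 62.0 CPM in osteogenic CAR-like cells. For Il7r they were Sit1 (0.982), Jakmip1 (0.970) and Cd2 (0.956), of which Sit1 and Cd2 encode lymphocyte surface proteins. For Il15 they were Soat1 (0.886), Tmbim6 (0.874) and Acvr1b (0.867), and for Il15ra Ccl4 (0.787), Pdxk (0.771) and Mapre2 (0.752). For Tnfsf13b they were Anxa1 (0.856), Ffar2 (0.809) and Bmx (0.805), and for Flt3l Stat5b (0.878) and Ogt (0.872). The Il7r pattern was the most closely matched and that of Il15ra the least. Il15ra had few UMIs in several of these classes (0 in pulse and 4 in chase precursor B-like cells), and the part of counting error in its lower r was not tested.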

How the data were processed

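The authors deposited raw UMI counts per gene and barcode for each library, made with the 10x 3′ kit version 3.1 per the labels' protocols. Cell Ranger 6.0.2 is named per the file headers and 2.1.1 per the submitters' processing notes, and this was not settled. The build is mm10 per the submitters' processing notes. The annotation release and strand setting are not given in the sources used here.

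From these counts, barcodes with at least 500 genes, 1000 UMIs and under 10% mitochondrial UMIs were kept (9390 of 10608 pulse and 8445 of 10046 chase barcodes, from 89009901 and 82939659 UMIs), and Scrublet removed 178 and 110 as doublets (1.90% and 1.30%). The 8 main classes needed 4 to 7 of 8 markers, progenitor-like and type 2 innate lymphoid-like cells 4 of 6, dendritic-like cells 4 of 7, erythroid-like cells 5 of 6 and regulatory T-like cells 2 of 5. UMIs were summed over the cells of a class and divided by the class total. Intervals are 95% Poisson, Clopper-Pearson for shares, and conditional exact for ratios. A gene counted as higher or lower at 1.5-fold with at least 50 UMIs and a prior count of 0.5. Shares used cells thinned to 2000 UMIs. Ratio and interval code was tested on simulated data. Leiden clusters (2000 variable genes, 30 components, 15 neighbours, resolution 1, without the 6 genes) served as an alternative to the gates, beside a stricter gate, no doublet removal, no filter on genes or mitochondrial share and totals without mitochondrial and ribosomal genes. Python 3.11.15, scanpy 1.11.5, leidenalg 0.10.2, scipy 1.17.1, numpy 2.4.6 and pandas 2.3.3 were used.

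The 6 genes, the 19 partners and the marker lists were chosen with earlier results of these data known. The number of markers a gate needs, the bins of osteogenic share, and the interferon list and its bins were set after the data were seen. Named genes are the members, the partners and, for each member, the 3 genes of highest r among those with at least 20 CPM in a class of each library; 1 such gene is not reported here.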

Additional observations from a re-analysis of the deposited data

Results flagged for a closer look

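The chase-to-pulse ratio of Il7r lay on opposite sides of 1 in the lymphocyte classes, at 1.84 (1.52 to 2.23) in B-like cells and 0.755 (0.694 to 0.822) in T-like cells. With 1 library per group this difference was not tested. The B-like class held 59 precursor and 409 mature cells in the pulse and 62 and 62 in the chase, and within precursor B-like cells the ratio was 0.755 (0.597 to 0.958).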

How the results depend on the processing

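The 8 ratios for CAR-like and T-like cells were recomputed under 5 alternatives each, 40 values in all, and 36 stayed within their counting interval, 4 moved outside it and 0 changed direction. With Leiden clusters in place of gates the Il7 ratio in CAR-like cells was 0.603, and the osteogenic-to-adipogenic ratio of Il7 was 0.457 in the pulse and 0.514 in the chase. Without mitochondrial and ribosomal protein genes in the totals the Il7r ratio in T-like cells was 0.689. At 2-fold in place of 1.5-fold, 1 member (Tnfsf13b) in place of 3 differed in CAR-like cells. In the interferon bins, an alternative chosen after seeing the data, Il7 had a ratio of 0.523 in the lower and 0.764 in the upper bin, Flt3l 1.03 in the upper bin, and Il15 reversed to 0.816 (0.630 to 1.07) there; the cause was not tested. Shares of cells depend on the thinning, and the Il7 share of CAR-like cells was 14.5% and 8.91% at 1000 UMIs and 64.5% and 43.2% without thinning. No paired analysis was possible because each group is 1 library, and for the same reason no library could be left out. Depth limits the values for NK-like, innate lymphoid-like and dendritic-like cells, for Il7 outside CAR-like cells and for Il15ra in T-like cells.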
